A study of Mus musculus with 62 samples.

Results

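Transcripts of 4 genes that are known from fat, Ucp1, Cidea, Adipoq and Cfd, were followed through the heart libraries of wild-type and Rpl3l-deficient mice. The genes were taken by symbol, and each is represented by 1 transcript, out of the 10476 genes with a transcript in the count table. The hearts came from male C57BL/6J mice, Rpl3l+/+ or Rpl3l-/- (a deletion made with Cas9 in zygotes), at 10 weeks of age, and no drug or other treatment was given to either genotype. RNA-seq gave the abundance of each mRNA, Ribo-seq the fragments protected by translating ribosomes, and Disome-seq the longer fragments protected by a pair of adjoining ribosomes, with 4 mice per genotype in each assay. Whole hearts were lysed, so that fewer cells of a type and less RNA per cell cannot be told apart.

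Fat cells store lipid in droplets, and brown fat cells in addition burn it to make heat. Ucp1 encodes uncoupling protein 1, the mitochondrial carrier that lets protons flow back without making ATP and that defines brown and beige fat cells. Cidea encodes a protein of lipid droplets that is abundant in brown fat, Adipoq encodes the hormone adiponectin secreted by fat cells, and Cfd encodes adipsin, or complement factor D, a serine protease secreted by fat cells. Hearts carry fat on their surface and around the great vessels.

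In GRCm38 with GENCODE M21, Ucp1 lies on the plus strand of chromosome 8 from 83290352 to 83298452 (ENSMUST00000034146.4, 6 exons), Adipoq on chromosome 16 from 23146536 to 23158028 (ENSMUST00000023593.5, 3 exons), and Cfd on chromosome 10 from 79890853 to 79892655 (ENSMUST00000061653.8, 5 exons). A further Cfd transcript had the same count in every column, and a further annotated transcript of Adipoq is not analysed here.

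Since these genes turned out to move together across hearts in RNA-seq and Ribo-seq, upstream bases are shown for 3 of them, without Cidea. They are the 250 bases before the RefSeq start (GRCm38.p6, plus strand), at chr8:83290098-83290347 for Ucp1, chr16:23146286-23146535 for Adipoq and chr10:79890603-79890852 for Cfd. Capitals mark matches on either strand to any of 4 motifs. These were TATAAA, the box at which transcription factor IID binds, the C/EBP motif TTGCNNAA, the core AGGTCA of the sites of nuclear receptors, and the CCAAT box.
Ucp1: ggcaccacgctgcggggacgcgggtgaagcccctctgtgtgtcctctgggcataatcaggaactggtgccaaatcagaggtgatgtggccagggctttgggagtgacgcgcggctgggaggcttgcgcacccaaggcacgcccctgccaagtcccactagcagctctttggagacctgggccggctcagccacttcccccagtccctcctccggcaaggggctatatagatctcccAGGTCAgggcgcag
Adipoq: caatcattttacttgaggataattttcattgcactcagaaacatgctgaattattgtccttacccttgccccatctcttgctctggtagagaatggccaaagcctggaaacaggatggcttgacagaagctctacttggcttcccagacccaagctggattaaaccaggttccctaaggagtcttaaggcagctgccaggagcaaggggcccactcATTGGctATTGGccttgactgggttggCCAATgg
Cfd: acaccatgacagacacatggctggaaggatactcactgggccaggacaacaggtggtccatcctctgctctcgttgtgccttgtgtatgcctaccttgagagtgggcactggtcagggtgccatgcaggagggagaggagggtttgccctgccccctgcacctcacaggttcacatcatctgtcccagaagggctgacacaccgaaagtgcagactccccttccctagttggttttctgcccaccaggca
The Ucp1 stretch held 1 AGGTCA, from base 14 to base 9 before the start, a motif present in 14.0% of 32851 stretches of this length. The Adipoq stretch held 3 CCAAT boxes, of which 2 lay on the minus strand, and 33.8% of all stretches held at least 1. The Cfd stretch held none of the 4 motifs. TATAAA (12.4% of all stretches) and TTGCNNAA (9.56%) were found in none of the 3, so that no motif searched was shared between these 3 members. The GC content was 64.8% for Ucp1, 48.8% for Adipoq and 57.6% for Cfd, beside a median of 52.4%.

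Cidea lies on chromosome 18 from 67343604 to 67367785 (ENSMUST00000025404.9, 5 exons), where it overlaps the antisense gene B430212C06Rik. Since the strand setting of the counting is not given in the sources used here, reads of Cidea and of this antisense gene cannot be told apart.

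Total counts per heart library were 3594696 to 22425296 in RNA-seq, 1606700 to 3192090 in Ribo-seq and 39016 to 175747 in Disome-seq. Rpl3l, the deleted gene, fell in every Rpl3l-/- library, from 459 ± 80.8 to 30.1 ± 7.05 CPM (counts scaled to the size of the library, mean ± SD, n = 4 per genotype) in RNA-seq and from 271 ± 7.62 to 10.9 ± 3.38 CPM in Ribo-seq. The summed level of 6 genes of ventricle and heart muscle was 39986 to 56302 CPM in RNA-seq, so that the genes of the labelled tissue were present. Libraries with the same number did not always go together across assays. Over 12483 transcripts, deviations from the genotype mean in RNA-seq and Ribo-seq correlated between same-numbered libraries of 6 hearts (r from 0.150 to 0.437), but not for Rpl3l-/- number 2 (r = -0.441) and number 3 (r = -0.500). The RNA-seq library labelled Rpl3l-/- 2 correlated best with the Ribo-seq library labelled 3 (r = 0.524), and the RNA-seq library labelled 3 with the Ribo-seq library labelled 2 (r = 0.529). Between Ribo-seq and Disome-seq, every library correlated best with its own number (r from 0.143 to 0.411 over 1365 transcripts). Whether these labels are right cannot be told from the counts, the labels were kept as given, and each result that sets RNA-seq against the other assays is given with and without these 2 hearts.

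Ucp1 mRNA ranged from no read to over 100 CPM among the 8 hearts. In RNA-seq its level was 10.9, 15.7, 5.48 and 60.3 CPM in Rpl3l+/+ hearts 1 to 4 and 22.8, 0, 105 and 5.04 CPM in Rpl3l-/- hearts 1 to 4. Rpl3l-/- heart 3 and Rpl3l+/+ heart 4 stood above the other hearts, and the Rpl3l-/- library 2 had 0 counts where 3 counts would have been 0.189 CPM. In Ribo-seq its level was 15.5, 23.8, 8.87 and 92.1 CPM in the Rpl3l+/+ hearts and 34.7, 118, 0 and 8.02 CPM in the Rpl3l-/- hearts. The Rpl3l+/+ hearts kept their order between the assays, whereas Rpl3l-/- 2 was now the highest and Rpl3l-/- 3 the one with 0 counts, where 3 counts would have been 1.93 CPM. The groups overlapped in both assays.

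Adipoq was detected in every RNA-seq and Ribo-seq library. Its RNA-seq level was 25.5, 31.6, 5.83 and 41.6 CPM in Rpl3l+/+ hearts 1 to 4 and 91.8, 0.378, 110 and 7.47 CPM in Rpl3l-/- hearts 1 to 4. Rpl3l-/- hearts 1 and 3 lay above all Rpl3l+/+ hearts, and Rpl3l-/- 2 lay below them, with 6 counts. Its Ribo-seq level was 32.5, 56.6, 21.1 and 70.9 CPM in the Rpl3l+/+ hearts and 138, 164, 2.58 and 12.3 CPM in the Rpl3l-/- hearts. Here Rpl3l-/- hearts 1 and 2 lay above all Rpl3l+/+ hearts and Rpl3l-/- hearts 3 and 4 below them.

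Cfd had the highest mean level of the 4 genes. Its RNA-seq level was 118, 225, 49.3 and 281 CPM in Rpl3l+/+ hearts 1 to 4 and 382, 8.51, 617 and 48.7 CPM in Rpl3l-/- hearts 1 to 4. Rpl3l-/- hearts 1 and 3 were again the highest and Rpl3l-/- 2 the lowest, with 72.5-fold between the highest and the lowest library. Its Ribo-seq level was 203, 315, 104 and 368 CPM in the Rpl3l+/+ hearts and 539, 1005, 25.8 and 87.6 CPM in the Rpl3l-/- hearts. The lowest library, Rpl3l-/- 3, still had 40 counts.

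Cidea varied far less. Its RNA-seq level was 67.0, 96.4, 42.8 and 91.6 CPM in Rpl3l+/+ hearts 1 to 4 and 99.8, 49.9, 139 and 44.7 CPM in Rpl3l-/- hearts 1 to 4. The highest library was Rpl3l-/- 3, as for the other members, but the lowest was Rpl3l+/+ 3, and the 2 lay only 3.25-fold apart. Its Ribo-seq level was 61.1, 77.2, 62.5 and 96.9 CPM in the Rpl3l+/+ hearts and 81.7, 126, 56.1 and 55.5 CPM in the Rpl3l-/- hearts. The Rpl3l-/- RNA-seq library 2, with no Ucp1 read and 6 Adipoq counts, held 792 counts of Cidea.

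**Figure D1:**
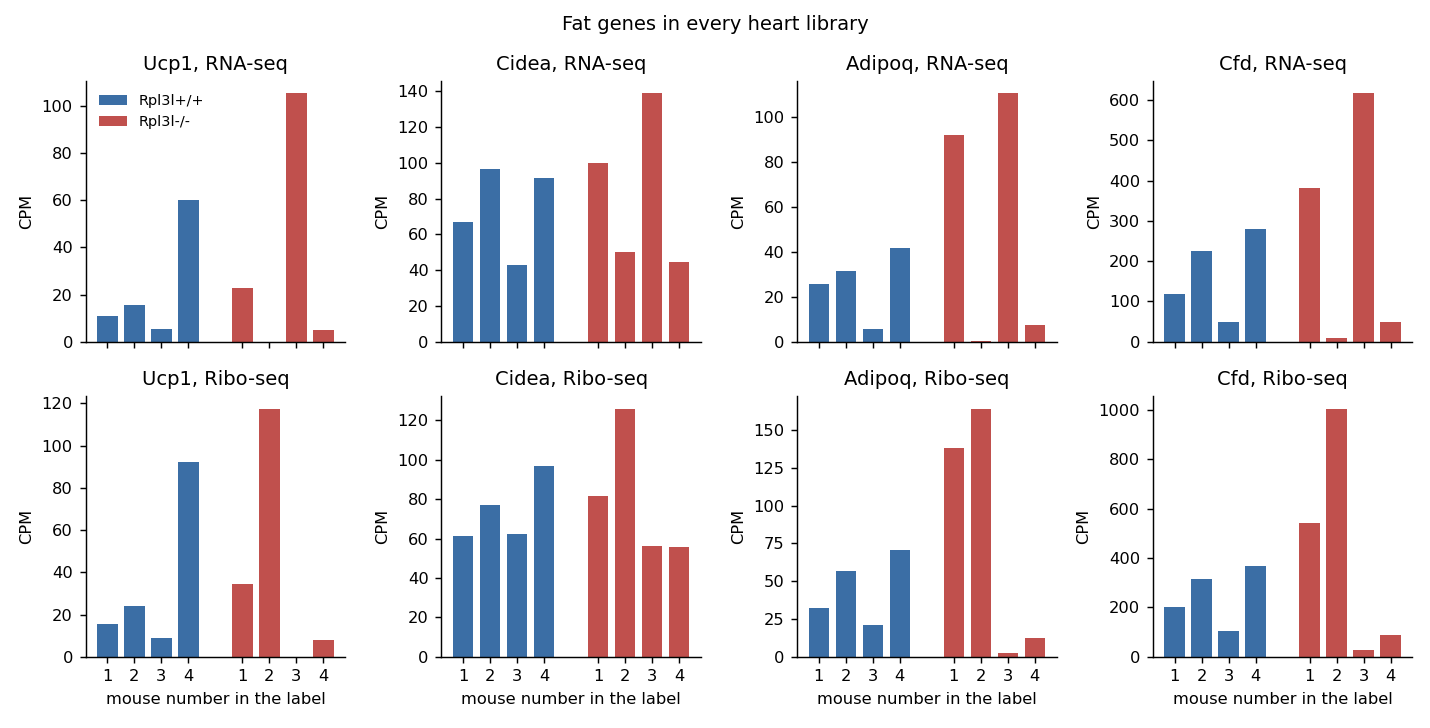
Level of each gene in CPM (vertical axis, a scale of its own in each panel) in the RNA-seq (top) and Ribo-seq (bottom) library of each heart, by the mouse number in the label, with Rpl3l+/+ in blue and Rpl3l-/- in red. Ucp1, Adipoq and Cfd are high in Rpl3l-/- 3 and near 0 or low in Rpl3l-/- 2 in RNA-seq and the reverse in Ribo-seq, and Cidea stays above 42 CPM in every library.

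On a scale per length (CPM per kilobase of exon, mean ± SD, n = 8 hearts), the order in RNA-seq was Cfd (234 ± 225), Cidea (70.7 ± 30.2), Adipoq (30.4 ± 31.7) and Ucp1 (17.2 ± 22.3). The order in Ribo-seq was the same, with 359 ± 348 for Cfd, 69.2 ± 21.9 for Cidea, 48.2 ± 46.2 for Adipoq and 23.0 ± 26.5 for Ucp1. Neighbours in this order differed by less than the larger of their SDs, except for Cidea and Adipoq in RNA-seq. On this scale Cfd lay above Adipoq in 8 of 8 libraries of each assay (5.84 to 31.5 times in RNA-seq and 5.47 to 14.0 times in Ribo-seq). Cidea lay above Cfd in the RNA-seq library Rpl3l-/- 2 and the Ribo-seq library Rpl3l-/- 3, and below it in the others. Cidea lay above Adipoq in 8 of 8 RNA-seq and 6 of 8 Ribo-seq libraries. Ucp1 lay above Adipoq in Rpl3l+/+ heart 4 alone, with a ratio of 1.14 in RNA-seq and 1.03 in Ribo-seq. The ratio of Ucp1 to Adipoq was thus not the same in all hearts. It was 0.196 in RNA-seq and 0.198 in Ribo-seq of Rpl3l-/- heart 1, 0.533 and 0.513 in Rpl3l-/- heart 4, and 0.392 and 0.333 in Rpl3l+/+ heart 2. In Rpl3l+/+ heart 3 the assays lay farther apart (0.742 and 0.332), on 31 and 33 counts in RNA-seq.

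The spread between hearts of 1 genotype placed Ucp1, Adipoq and Cfd among the most variable transcripts. The SD of log2 CPM within genotype, pooled over both genotypes, was 2.97 for Ucp1, 2.69 for Adipoq and 2.16 for Cfd in RNA-seq, beside a median of 0.29 over 15394 transcripts. They ranked 19, 25 and 38 from the top. In Ribo-seq the SD was 2.34, 1.99 and 1.79, beside a median of 0.23 over 12695 transcripts, with ranks 23, 26 and 33. Cidea, with 0.67 in RNA-seq and 0.45 in Ribo-seq, ranked 1758 and 1119. Without Rpl3l-/- hearts 2 and 3 the SD in RNA-seq was 1.46 for Ucp1, 1.67 for Adipoq and 1.43 for Cfd, with ranks 236, 109 and 255, and leaving out Rpl3l-/- 2 alone gave 1.77, 1.67 and 1.51. In Ribo-seq without both hearts it was 1.39, 1.37 and 1.16, with ranks 32, 33 and 47.

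The 4 genes rose and fell together over the hearts in RNA-seq and in Ribo-seq. In RNA-seq, log2 CPM of Adipoq and Cfd correlated with Pearson's r = 0.99 and Spearman's rho = 0.98 over 8 hearts (adjusted p = 0.00045 and 0.0014, exact permutation test, two-sided, Benjamini-Hochberg over 18 pairs of genes and assays). The same pair gave r = 0.99 and rho = 1.0 in Ribo-seq (adjusted p = 0.00045 and 0.00089), where the raw p of r, 2.48e-05, is the smallest that 8 libraries allow. For Ucp1 and Adipoq r was 0.95 in RNA-seq and 0.94 in Ribo-seq (rho 0.95 and 0.98), with exact permutation adjusted p = 0.0023 and 0.0028 for r and 0.0029 and 0.0014 for rho. For Ucp1 and Cfd r was 0.96 and 0.95 (rho 0.98 and 0.98), with exact permutation adjusted p = 0.0013 and 0.0018 for r and 0.0014 in both assays for rho. Cidea followed the others less closely. Its r in RNA-seq was 0.75 with Ucp1, 0.82 with Adipoq and 0.87 with Cfd, and in Ribo-seq 0.85, 0.83 and 0.87. The exact permutation adjusted p of these 6 values of r lay between 0.012 and 0.028, and that of their rho (0.83 to 0.95) between 0.0029 and 0.023. All 12 pairs in the 2 assays passed the threshold of 0.05 for r and for rho. In Disome-seq r lay between 0.09 and 0.68, and 0 of the 6 pairs passed for r. The 4 genes were chosen with earlier results of these data known, so that these p-values are no independent evidence. Over all genes, r in RNA-seq reached 0.9 for 0.191% of 6299 genes with Ucp1, 0.603% with Cidea, 0.381% with Adipoq and 0.365% with Cfd. Without the 2 libraries farthest from the median of the gene named first, r stayed between 0.80 and 0.98. With values centred within genotype, which takes out any difference between genotypes, these 12 pairs and 2 of the 6 pairs in Disome-seq passed. In 6 hearts, without Rpl3l-/- 2 and 3, r lay between 0.80 and 0.98 in both assays, but only 5 of the 12 pairs passed after adjustment.

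**Figure D2:**
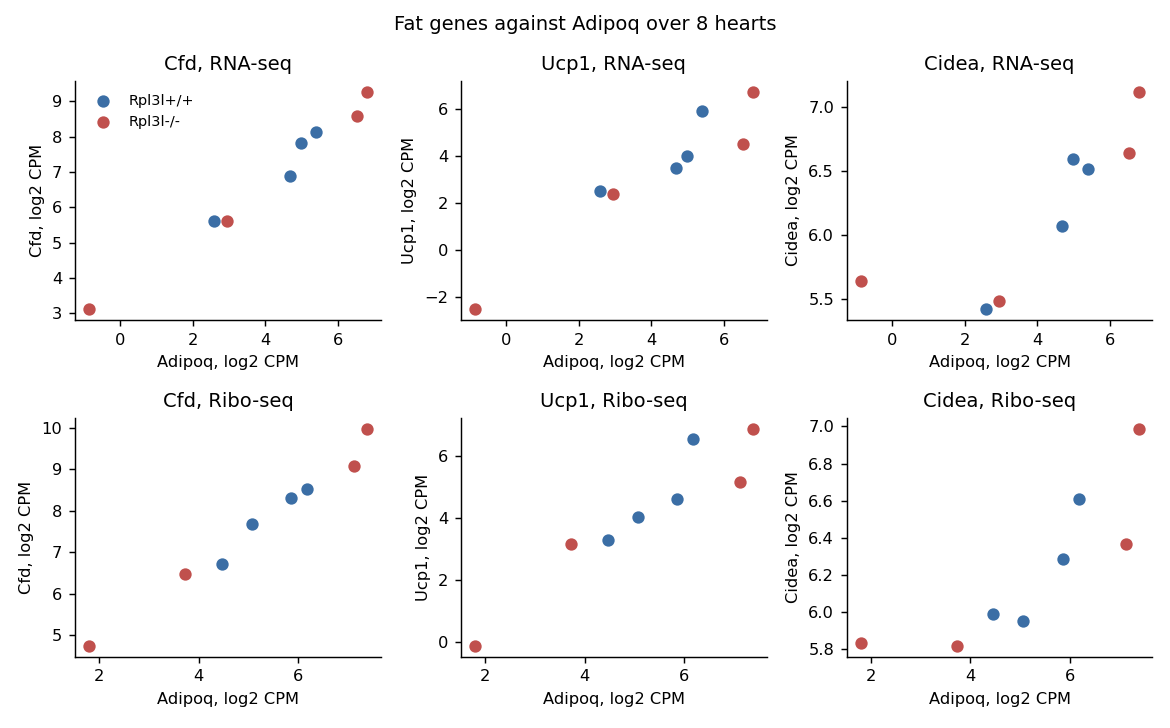
Log2 CPM (prior count of 2) of Cfd, Ucp1 and Cidea (vertical axis) against that of Adipoq (horizontal axis) in the 8 RNA-seq (top) and 8 Ribo-seq (bottom) heart libraries, with Rpl3l+/+ in blue and Rpl3l-/- in red. Cfd follows Adipoq nearly on a line in both assays (r = 0.99), and Cidea spans 1.70 log2 units in RNA-seq, against 7.64 for Adipoq.

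Genotype did not separate the hearts for any of the 4 genes. In RNA-seq, edgeR's quasi-likelihood test gave a log2 difference, Rpl3l-/- minus Rpl3l+/+, of 0.46 (SE 0.94) for Ucp1, 0.16 (SE 0.30) for Cidea, 0.99 (SE 0.85) for Adipoq and 0.65 (SE 0.77) for Cfd. No member passed the threshold (edgeR adjusted p of 0.999 for each), and over all transcripts 0.013% (2 of 15394) were called, both of Rpl3l. In Ribo-seq the log2 difference was 0.40 (SE 0.78) for Ucp1, 0.13 (SE 0.23) for Cidea, 0.89 (SE 0.67) for Adipoq and 0.76 (SE 0.69) for Cfd. Here too no member passed (edgeR adjusted p between 0.54 and 0.85), where 0.764% of 12695 transcripts were called (61 higher, 0.481%, and 36 lower, 0.284%). Scaled by library totals in place of TMM factors, 42 were called higher and 63 lower, and again no member. With these SEs a difference of several-fold in Ucp1, Adipoq or Cfd was not detectable. Without Rpl3l-/- hearts 2 and 3 the difference of Ucp1 changed sign, to -0.81 (SE 0.68) in RNA-seq and -0.58 (SE 0.78) in Ribo-seq. That of Adipoq was 0.91 (SE 0.64) and 0.80 (SE 0.58), but it ranged from 0.32 (without Rpl3l-/- 3) to 1.40 in RNA-seq and from 0.27 (without Rpl3l-/- 2) to 1.27 in Ribo-seq when 1 heart was left out. Without the 2 hearts no member was called (lowest edgeR adjusted p of 0.59).

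**Figure D3:**
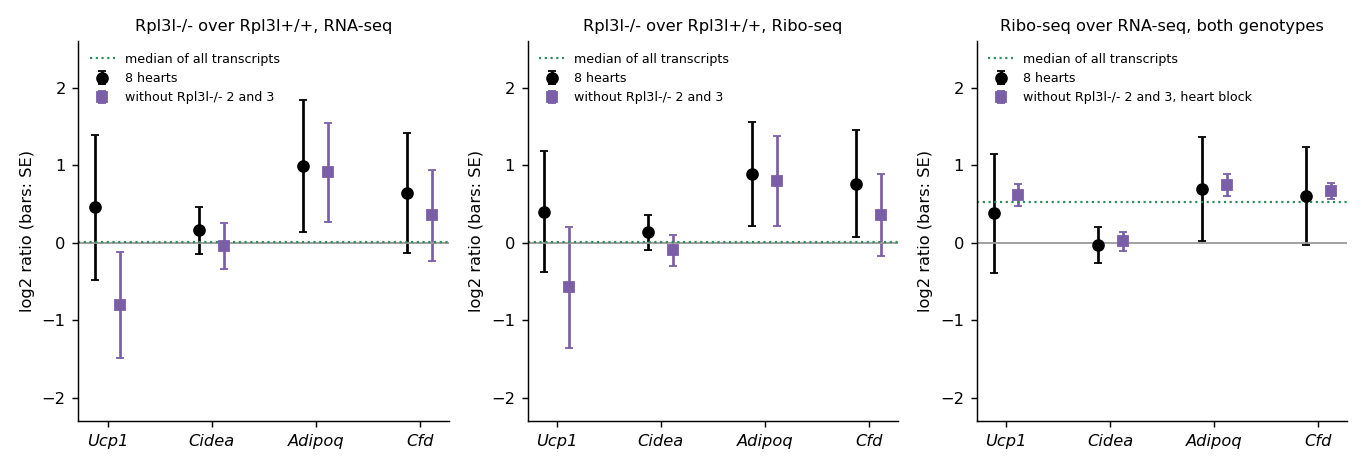
Fitted log2 ratios of the 4 genes (points, bars are SE) between genotypes in RNA-seq (left) and Ribo-seq (middle) and of Ribo-seq over RNA-seq averaged over genotypes (right), with all 8 hearts (black) and without Rpl3l-/- 2 and 3 (purple, on the right with each heart as a block). The dotted line is the median of all transcripts with 8 hearts, and the purple bars on the right (SE of 0.10 to 0.14) differ from the black ones both in the hearts left out and in the block.

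Ribo-seq was set against RNA-seq of the library with the same genotype and number. Over all 8 hearts, log2 CPM in the 2 assays did not correlate for any member (r of -0.48 for Ucp1, -0.03 for Cidea, -0.33 for Adipoq and -0.38 for Cfd, exact permutation adjusted p between 0.53 and 0.93 over 12 comparisons). Spearman's rho lay between -0.19 and 0.07 (exact permutation adjusted p = 0.89 for each). Without the 2 Rpl3l-/- hearts, r over 6 hearts was 0.999 for Ucp1, 0.995 for Cfd and 0.95 for Adipoq (exact permutation adjusted p = 0.0083, 0.0083 and 0.020), and 0.83 for Cidea (adjusted p = 0.10 by the same exact test). Spearman's coefficient over these hearts was 1.0, 1.0, 0.94 and 0.66, with exact permutation adjusted p = 0.017, 0.017, 0.053 and 0.24. The 2 hearts were left out after their values had been seen.

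**Figure D4:**
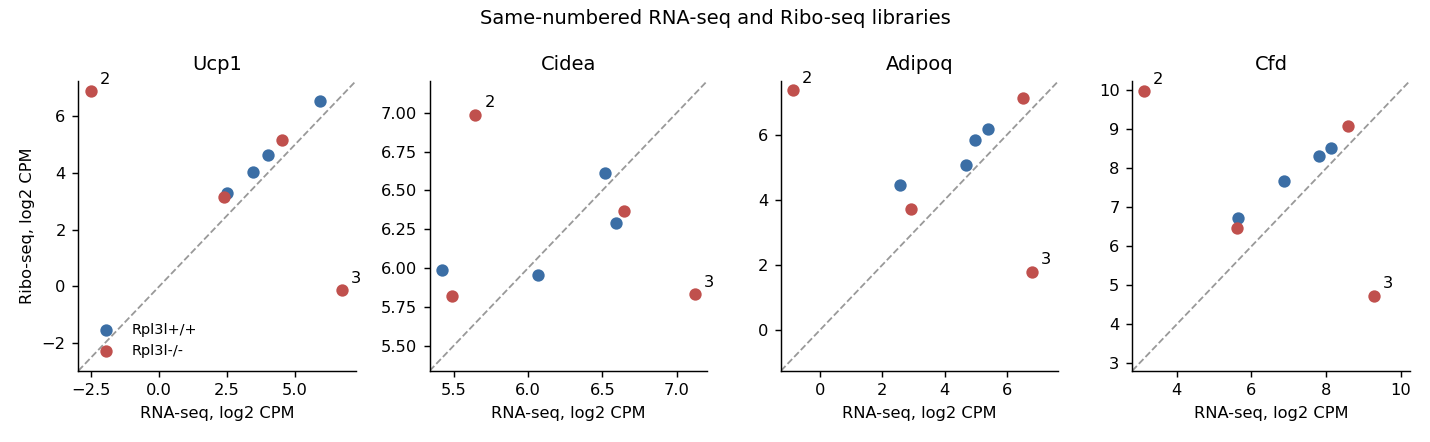
Log2 CPM (prior count of 2) in Ribo-seq (vertical axis) against RNA-seq (horizontal axis) for libraries of the same genotype and number, with Rpl3l+/+ in blue, Rpl3l-/- in red and equal CPM as a dashed line. Rpl3l-/- 2 and 3, marked by their number, lie on opposite sides of the line for all 4 genes, while the other 6 hearts lie above it for Ucp1, Adipoq and Cfd and on both sides of it for Cidea.

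In those 6 hearts the translation ratio, CPM in Ribo-seq over CPM in RNA-seq, hardly varied for Ucp1. It was 1.42, 1.52, 1.62 and 1.53 in the Rpl3l+/+ hearts and 1.52 and 1.59 in Rpl3l-/- hearts 1 and 4 (1.53 ± 0.0679, SD, n = 6), while the level of its mRNA differed by over 10-fold. These ratios rest on 51, 59, 21 and 174 Ribo-seq counts in the Rpl3l+/+ hearts and 67 and 13 in Rpl3l-/- hearts 1 and 4. At such counts, counting error alone can move a ratio by more than this SD, so that a constant ratio is not shown. The ratio of Cfd was 1.73, 1.40, 2.12 and 1.31 in the Rpl3l+/+ hearts and 1.41 and 1.80 in the Rpl3l-/- hearts (1.63 ± 0.309). That of Adipoq was 1.28, 1.79, 3.62 and 1.70 and then 1.504 and 1.65 (1.93 ± 0.852), the highest being Rpl3l+/+ 3, where mRNA was lowest. That of Cidea was the lowest of the 4, at 0.912, 0.801, 1.46 and 1.06 and then 0.819 and 1.24 (1.05 ± 0.262). In Rpl3l-/- 2 the ratio reached 434 for Adipoq, 118 for Cfd and 2.52 for Cidea, and none can be given for Ucp1, whose RNA-seq count was 0. In Rpl3l-/- 3 it was 0.0234 for Adipoq, 0.0418 for Cfd and 0.404 for Cidea, and 0 for Ucp1.

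The fit to both assays with 8 hearts gave a log2 translation ratio, averaged over genotypes, of 0.38 (SE 0.77) for Ucp1, -0.03 (SE 0.23) for Cidea, 0.69 (SE 0.67) for Adipoq and 0.61 (SE 0.63) for Cfd. None differed from equal CPM (edgeR adjusted p between 0.35 and 0.92), whereas 81.2% of 12483 transcripts did (59.5% higher and 21.7% lower), and the median of all was 0.53. Without Rpl3l-/- 2 and 3 and with each heart as a replicate block, it was 0.62 (SE 0.14) for Ucp1, 0.75 (SE 0.14) for Adipoq and 0.67 (SE 0.10) for Cfd. These 3 passed (edgeR adjusted p = 0.00047, 8.7e-05 and 5.2e-06). None passed in the same 6 hearts without the block (edgeR adjusted p from 0.27 to 0.90) or in 8 hearts with it (0.26 to 0.83), so that the calls needed both changes. In the blocked fit of 6 hearts 76.5% of 12442 transcripts were called (56.7% higher and 19.8% lower), so that the members were near the middle of all transcripts, at percentiles 54.2, 59.1 and 56.0. Cidea, at 0.02 (SE 0.12, edgeR adjusted p = 0.90), stood at percentile 30.0. The difference in translation ratio between genotypes, with 8 hearts, was -0.12 (SE 1.53) for Ucp1, -0.04 (SE 0.46) for Cidea, -0.13 (SE 1.34) for Adipoq and 0.10 (SE 1.27) for Cfd, and 0.0% of 12483 transcripts were called (0 by edgeR, with 805 at an unadjusted p under 0.05, and 1 by DESeq2). In the fit of 6 hearts with the block it lay between -0.22 and 0.03, with SE from 0.20 to 0.29 and no member called (0.0321% of 12442 transcripts were, each higher).

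Disome-seq was too shallow for a test of these genes, none of which reached a mean count of 10, and between genotypes 0.0% of the 1365 transcripts that did were called (0 by edgeR, with 60 at an unadjusted p under 0.05, and 0 by DESeq2). Ucp1 had 4, 4, 0 and 11 counts in Rpl3l+/+ hearts 1 to 4 and 8, 9, 0 and 0 in Rpl3l-/- hearts 1 to 4. Adipoq had 2, 0, 0 and 2 and then 18, 17, 0 and 0 counts, and Cfd 10, 4, 0 and 0 and then 18, 38, 0 and 0. Cidea had 5, 4, 5 and 3 and then 1, 4, 0 and 0 counts. Members had counts in Rpl3l-/- 1 and 2 and none in Rpl3l-/- 3 and 4, and 3 counts in these last 2 libraries would have been 60.6 and 75.9 CPM. In an alternative fit without that filter, the log2 difference between genotypes was 2.68 (SE 0.93) for Adipoq, 1.86 (SE 0.64) for Cfd, -0.70 (SE 0.78) for Ucp1 and -1.84 (SE 1.06) for Cidea. None was called (edgeR adjusted p = 0.79 for Adipoq and Cfd), where 0.0419% of 7168 transcripts were, each higher. The level in Ribo-seq and Disome-seq went the same way over 8 hearts, with r = 0.82 and rho = 0.93 for Ucp1, 0.80 and 0.88 for Adipoq, 0.78 and 0.79 for Cfd and 0.51 and 0.61 for Cidea. By the exact permutation test none of these r passed after adjustment (adjusted p = 0.083 for the first 3 and 0.53 for Cidea), while the rho of Ucp1 and Adipoq did (adjusted p = 0.032 and 0.043).

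Against the number expected if each gene had the disome share of its library, Cfd and Cidea had fewer disome counts, and so had the median transcript. Cfd had 70 counts where 269 were expected, a ratio of 0.260 (95% exact Poisson interval 0.203 to 0.329), and Cidea 22 where 55.0 were expected, a ratio of 0.400 (0.251 to 0.605). The ratio was 0.727 (0.517 to 0.994) for Adipoq, with 39 counts, and 1.38 (0.968 to 1.91) for Ucp1, with 36 counts, and its median over 12695 transcripts was 0.651. Of these transcripts 15.2% had a ratio below that of Cfd and 26.4% below that of Cidea. These intervals cover counting error and not the spread between hearts. Of the 1365 transcripts that passed the filter, 59.9% differed in their disome to monosome ratio from the library (26.8% higher and 33.0% lower). In a fit without the filter on low counts, edgeR gave a log2 disome to monosome ratio of -1.93 (SE 0.57, adjusted p = 0.0100) for Cfd and -1.44 (SE 0.41, adjusted p = 0.0079) for Cidea. Those of Adipoq, -0.76 (SE 0.87), and Ucp1, 0.56 (SE 0.78), were not called (edgeR adjusted p = 0.53 and 0.60), where 23.0% of 17478 transcripts were called (5.97% higher and 17.1% lower). The median of all transcripts in this fit was -0.98, and Cfd and Cidea stood at percentiles 34.8 and 40.9.

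Other genes of fat were taken from lists, of which only genes on the plus strand have a line in the count table. Of 24 brown fat genes 12 had a line, and of the 10 that are not members 8 had a mean RNA-seq count of at least 10. Elovl3, a fatty acid elongase, had at most 1 count per RNA-seq library, and Bmp8b, a growth factor, had 0. The 6 most abundant were Cox7a1, a subunit of cytochrome oxidase (1812 CPM on average, 1520 to 2453 CPM), Kcnk3, a potassium channel (63.0 to 104 CPM), Esrrg and Ppara, nuclear receptors (5.44 to 11.8 and 3.32 to 11.9 CPM), Letmd1, a mitochondrial protein (2.88 to 7.55 CPM), and Slc27a2, an acyl-CoA synthetase (0 to 5.71 CPM). Cox7a1 was highest in Rpl3l-/- 2, the library with no Ucp1 read, and its r with Ucp1 was -0.49. Slc27a2 had r = 0.76 with Ucp1 and was at 0 in Rpl3l-/- 2 and Rpl3l+/+ 1. Over the 8 genes, r with Ucp1 ranged from -0.49 (Cox7a1) to 0.85 (Otop1, with a mean RNA-seq count of 19.25). It reached 0.9 for 0 of them, beside 0.191% of 6299 genes. Of the 8 genes none was called in RNA-seq, and the median log2 difference between genotypes was -0.07, beside 0.0037 over all transcripts. In Ribo-seq, where the median was 0.20 beside 0.011 over all transcripts, 1 of 6 was called, Kcnk3, beside 0.764% of 12695 transcripts (0.481% higher). Kcnk3 was higher in Rpl3l-/- hearts by 0.53 on the log2 scale (SE 0.11, edgeR adjusted p = 0.04998). This call was lost in each of the 8 fits without 1 heart (edgeR adjusted p from 0.064 to 0.14).

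Of 37 genes of general and white fat 19 had a line, and 15 of the 17 that are not members reached a mean RNA-seq count of 10. The most abundant were Lpl, lipoprotein lipase (1519 to 2448 CPM), Pnpla2, the triglyceride lipase ATGL (474 to 680 CPM), Acacb, acetyl-CoA carboxylase of mitochondria (215 to 266 CPM), Car3, carbonic anhydrase III (2.71 to 302 CPM), Bscl2, seipin (36.9 to 62.4 CPM), and Gpd1, glycerol-3-phosphate dehydrogenase (31.5 to 87.5 CPM). The highest and the lowest library differed by 1.61-fold for Lpl, 1.44-fold for Pnpla2 and 1.24-fold for Acacb, and by 111-fold for Car3. Leptin (Lep) had at most 14 counts in an RNA-seq library. The level of 4 of the 15 genes correlated with that of Adipoq with r of at least 0.9, as did 0.381% of 6299 genes. Of the 12 genes with a mean count of at least 10 also in Ribo-seq, Rpl3l-/- 2 was the lowest RNA-seq library for 6 and Rpl3l-/- 3 the highest for 6, beside 14.4% and 9.24% of 5271 genes. In Ribo-seq, Rpl3l-/- 3 was the lowest for 7 and Rpl3l-/- 2 the highest for 7, beside 15.5% and 14.0%. None of the 15 was called between genotypes in RNA-seq (median log2 difference 0.30, beside 0.0037 over all transcripts). Of 12 in Ribo-seq (median 0.48, beside 0.011 over all transcripts) 1 was called, Pnpla2, beside 0.764% of 12695 transcripts (0.481% higher). Pnpla2 was higher in Rpl3l-/- hearts by 0.38 (SE 0.07, edgeR adjusted p = 0.032). This call was lost in 7 of the 8 fits without 1 heart (edgeR adjusted p from 0.048 to 0.10).

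**Figure D5:**
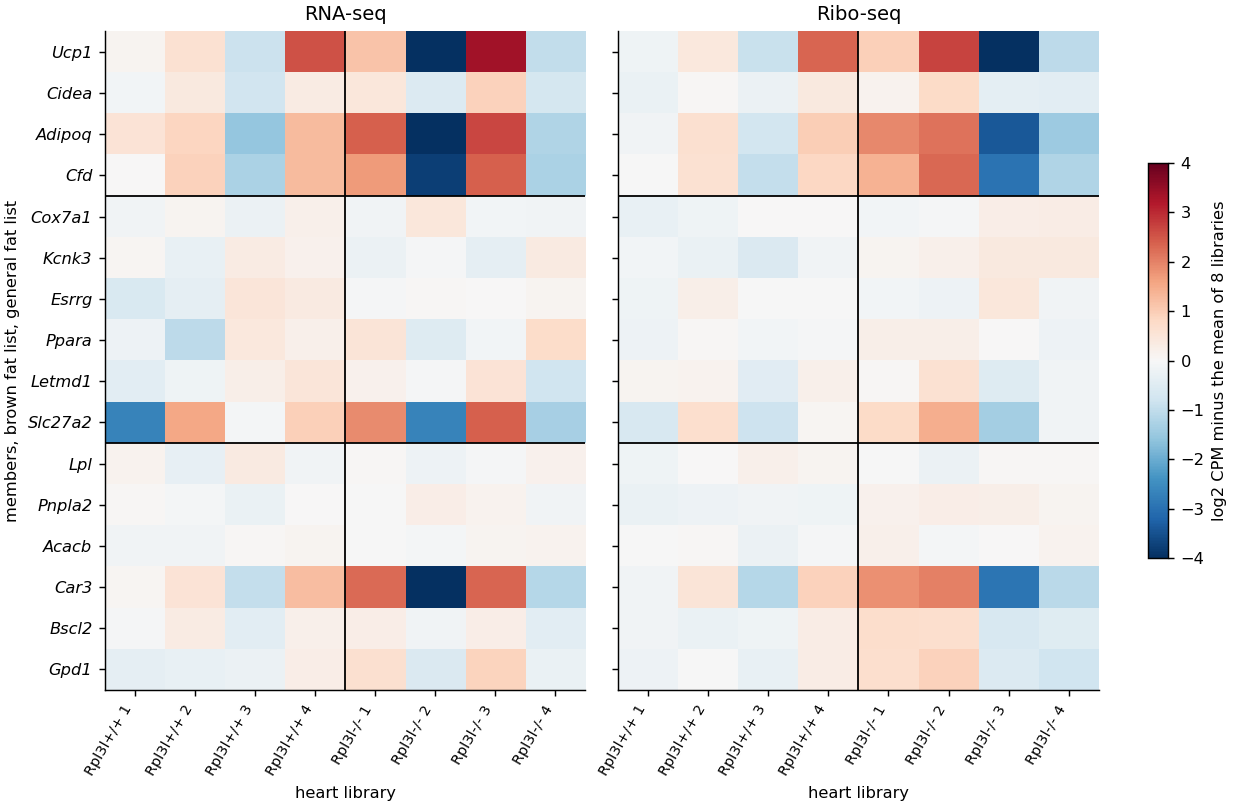
Log2 CPM (prior count of 2) minus the mean of the 8 libraries of an assay, in colour, for the 4 members (top), 6 brown fat genes (middle) and 6 genes of general and white fat (bottom), in RNA-seq (left) and Ribo-seq (right). Colours end at 4 in either direction. Car3 follows Adipoq and Cfd over the libraries, and Cox7a1, Lpl, Pnpla2 and Acacb differ little between hearts.

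The genes whose RNA-seq pattern over 8 hearts was most like that of Adipoq, among 6303 with 1 transcript each, were Car3 (r = 0.994), Pck1, phosphoenolpyruvate carboxykinase (0.990), and Cyp2e1, a cytochrome P450 (0.987). The same 3 genes were nearest to Cfd (Car3 0.988, Cyp2e1 0.984 and Pck1 0.978). Nearest to Ucp1 were Aoc3, an amine oxidase (0.962), Pck1 (0.961) and Car3 (0.959). Ribo-seq did not choose them, but its libraries may come from the same hearts and are then no independent check. There r was 0.992, 0.973 and 0.960 with Adipoq for Car3, Pck1 and Cyp2e1, and 0.830, 0.958 and 0.940 with Ucp1 for Aoc3, Pck1 and Car3. For Cidea the nearest were other genes, Hpcal1, a calcium-binding protein (r = 0.973 in RNA-seq and 0.713 in Ribo-seq), Slc1a5, a carrier of neutral amino acids (0.970 and 0.901), and Ifi27, an interferon-induced gene (0.961 and 0.948).

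Genes of some other tissues varied with the hearts too. The summed level of 8 airway and lung genes in RNA-seq was 1.15, 468, 4.59 and 121 CPM in Rpl3l+/+ hearts 1 to 4 and 1109, 0.820, 1536 and 1.53 CPM in Rpl3l-/- hearts 1 to 4. In Ribo-seq it was 5.47, 1070, 19.4 and 310 CPM and then 2389, 3238, 1.29 and 7.40 CPM. Rpl3l-/- hearts 1 and 3 in RNA-seq, and 1 and 2 in Ribo-seq, were thus the highest for airway genes as for Adipoq and Cfd. The order was not the same throughout, since Rpl3l+/+ heart 1 had 25.5 CPM of Adipoq with 1.15 CPM of airway genes, and Rpl3l+/+ heart 4, high in Ucp1, had less airway signal than Rpl3l+/+ heart 2. The correlation of 7 airway genes with Adipoq in RNA-seq ranged from 0.557 (Sftpb) to 0.833 (Cyp2f2). Of 6 fibroblast genes measured in both assays, Rpl3l-/- 2 was lowest for 5 in RNA-seq and Rpl3l-/- 3 lowest for 6 in Ribo-seq, and of 4 atrial genes for 3 and 4, beside 14.4% and 15.5% of 5271 genes. The same libraries were lowest for 2 of 2 immune genes and 1 of 1 mesothelium gene in each assay. They were lowest for 1 of 3 endothelium genes and 0 of 1 nerve gene. For 6 genes of ventricle and heart muscle, 4 of skeletal muscle and 3 of blood, this direction of extremes was seen for 0. There Rpl3l-/- 2 was never lowest and Rpl3l-/- 3 never highest in RNA-seq, nor the reverse in Ribo-seq. The opposite extremes were not counted over all genes, and some of these genes had them. Myl3, a myosin light chain, was highest in RNA-seq in Rpl3l-/- 2 (11772 CPM) and lowest in Rpl3l-/- 3 (7611 CPM). The part of other tissue in the levels of the 4 genes was not tested.

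Cultured C2C12 cells, a mouse line of muscle precursors, either control or overexpressing Rpl3 or Rpl3l, showed almost none of these transcripts. Adipoq, Cfd and Cidea had 0 counts in all 9 RNA-seq libraries and Ucp1 had 2 counts in 1 library, and in Ribo-seq no library had more than 2 counts of any member. None of the 3181 peaks of the m6A-seq table carried the symbol of a member.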

How the data were processed

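RNA-seq, Ribo-seq and Disome-seq of 8 hearts (4 per genotype) and the C2C12 libraries were used. The authors deposited read counts per transcript, not normalized. Per the labels, cutadapt, STAR and featureCounts were used with GRCm38.p6 and mm10, with versions and the strand setting not given in the sources used here. Each of 23877 transcripts stands on 2 identical lines, of which 1 was kept, and 23662 matched GENCODE M21, all on the plus strand. The 2 Disome-seq columns of a mouse were taken as runs and summed.

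CPM used TMM factors per assay, and log2 CPM a prior count of 2. edgeR 4.0.16 (R 4.3.3) tested transcripts whose count averaged 10 or more (quasi-likelihood test, Benjamini-Hochberg adjusted p under 0.05), without the replicate number. DESeq2 1.42.0 was an alternative. The fits were tested on simulated data. Correlations were tested by enumerating all pairings (Python 3.11.15, SciPy 1.17.1). Named genes were the members, Rpl3l, the 3 genes nearest to each member and the 6 most abundant genes of each fat list. Elovl3, Bmp8b, Otop1, Lep, Sftpb, Cyp2f2 and Myl3 were named after their values had been seen. The members and lists were chosen with earlier results of these data known. The labels do not say that same-numbered libraries come from 1 mouse, and not every same-numbered pair correlated by over 0.1 between RNA-seq and Ribo-seq. p-values measure the spread between these samples, and intervals cover counting error only.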

Additional observations from a re-analysis of the deposited data

Results flagged for a closer look

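The Disome-seq level of Cidea in Rpl3l-/- heart 2, 42.3 CPM from 4 counts, was the highest of the Rpl3l-/- hearts, with a gap to the next value of 0.864 of the range of the 4 hearts. Rpl3l-/- 1 had 1 count, and Rpl3l-/- 3 and 4 had 0 counts where 3 counts would have been 60.6 and 75.9 CPM, so that a difference from these last 2 was not detectable at this depth. It was the only such value in 24 groups of 4 libraries (4 genes, 3 assays and 2 genotypes). For normally distributed values chance gives about 1 in 20 groups, a rate that need not hold for counts this low. Ribo-seq of the same number was also the highest of its group, at 126 CPM.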

How the results depend on the processing

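No member was called between genotypes in RNA-seq, Ribo-seq or translation ratio under any alternative, but directions were not stable. Leaving out 1 heart gave log2 differences of -1.40 to 1.69 (Ucp1), -0.21 to 0.37 (Cidea) and -0.21 to 1.04 (Cfd) in RNA-seq, -1.12 to 1.42, -0.19 to 0.27 and -0.16 to 1.15 in Ribo-seq, and -2.003 to 2.14 (Ucp1), -0.54 to 0.47 (Cidea), -1.16 to 0.93 (Adipoq) and -1.22 to 1.35 (Cfd) in translation ratio. Without Rpl3l-/- 2 and 3, added after the data had been seen, differences turned to -0.81 (Ucp1) and -0.0452 (Cidea) in RNA-seq, -0.58 and -0.10 in Ribo-seq and 0.22 (Ucp1) in translation ratio. With the number as a replicate block across genotypes they turned to -0.81 (Ucp1), -0.26 (Adipoq) and -0.43 (Cfd) in RNA-seq, and with heart as a replicate block to 0.31 (Ucp1), 0.0029 (Cidea) and 0.0375 (Adipoq) in translation ratio; in the block fit of 6 hearts to 0.0308 (Ucp1) and -0.00825 (Cfd). The average translation ratio of Cidea turned to 0.0463 with the block and 0.0174 in 6 hearts, and ranged over -0.30 to 0.25, -0.60 to 1.53 (Ucp1) and -0.0788 to 1.25 (Cfd) without 1 heart. Members called for this ratio were 0 with 8 hearts, 0 to 1 without 1 heart (Ucp1 without Rpl3l-/- 3), 0 with the block in 8 hearts, 0 in 6 hearts without it and 3 in 6 hearts with it. For the disome to monosome ratio 0 were tested, 2 were called without the filter and 0 to 1 without 1 heart (Cfd without Rpl3l+/+ 3, Rpl3l-/- 3 or Rpl3l-/- 4). Cfd passed the filter only in fits without a heart in which it had 0 disome counts, so that these calls are no further support. Without Rpl3l+/+ 4, the other such heart, it was not called (edgeR adjusted p = 0.059). Of 18 correlations of members 12 passed, 10 to 14 without 1 heart and 5 in 6 hearts; of 12 between assays 0 passed, 4 centred within genotype, 2 on linear CPM and 5 in 6 hearts, where r of RNA-seq and Ribo-seq turned to 0.999 (Ucp1), 0.83 (Cidea), 0.95 (Adipoq) and 0.995 (Cfd). Without 1 heart these 4 r were -0.76 to -0.15, -0.26 to 0.35, -0.58 to 0.10 and -0.56 to 0.0738. Over all transcripts, RNA-seq calls were 0 higher and 2 lower by edgeR and 9 and 2 by DESeq2. Ribo-seq calls were 61 and 36 by edgeR, 121 and 75 by DESeq2, 35 and 28 without the filter, 3 and 3 with 1 transcript per gene, 17 and 4 without Rpl3l-/- 2 and 3, and 2 and 14 without Rpl3l+/+ 3, the fewest without 1 heart. The same-number check and the depth of Disome-seq limit what can be said; the cause of these shifts was not tested.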
